A study of Mus musculus with 161 samples.

Results

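Of 150203 open chromatin sites counted by ATAC-seq in mouse bone marrow-derived macrophages (BMDMs), 379 were less accessible in 24 h M1 than in 0 h M0. They had not regained the 0 h M0 level 72 h after the M1 cytokines were washed away. ATAC-seq cuts and tags DNA where it is not covered by nucleosomes, so the number of reads at a site follows how open it is. The 379 sites were chosen by their mean CPM, the reads at a site scaled to the library total, in 3 libraries per condition, each with 0.5 added: 0 h M0 at least 3 times 24 h M1, an M0 mean of at least 5, and 0 h M0 at least 2 times 96 h M1→M0. They were 379 of the 1268 sites that met the first 2 limits (29.9%), and the other 889 are called reopening sites here. A further 47176 sites had an M0 mean of at least 5 and did not close.

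The cells were grown from marrow of C57BL/6J mice aged 6 to 10 weeks in medium with 20 ng/mL MCSF, the growth factor that turns marrow progenitors into macrophages, and every group shared this. M0 cells received no polarizing cytokine and were collected at 0 h. M1 cells received LPS at 100 ng/mL together with IFN-γ at 25 ng/mL for 24 h, and M1→M0 cells were then washed with PBS and kept for 72 h in base medium, which is 96 h after the start. Each of these conditions had 3 ATAC-seq libraries of 1730488 to 9354620 counts, the smallest being M1 library 3. Bulk RNA-seq came from separate libraries of the same conditions and of M0 cells kept unstimulated to 24, 48 and 96 h, with 3, 2 and 4 libraries. Also used were RNA libraries of M1 cells at 1, 2, 4 and 12 h and of M1→M0 cells from 25 to 48 h. Cells kept in the M1 cytokines to 96 h (M1→M1) and M2→M0 cells were used too, and each of these groups had 3 libraries. The M2→M0 cells had IL-4 at 25 ng/mL for 24 h and were then washed and kept for 72 h. Single-cell RNA-seq (10X) had 1 library per condition. Those of 0 h, 6 h and 24 h M0, 24 h M1 and 24 h M2 (IL-4 at 25 ng/mL) are used. ATAC-seq was made of 0 h M0, 24 h M1 and 96 h M1→M0 only, with no M0 library at 24 h or 96 h. For accessibility the M1 treatment and the time in culture therefore cannot be told apart, neither in M1 nor in M1→M0. The labels call the replicates biological, and whether each came from its own mouse is not given in the sources used here, so a p value measures the spread between these libraries. Of the 20 genes on a list of core macrophage markers 19 were in the RNA data, and mean Csf1r, the receptor for MCSF, was 504 FPKM in 0 h M0 and mean Cd68 was 1155 FPKM.

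Accessible sites away from gene starts are mostly enhancers, which hold binding sites for the factors of a lineage, in macrophages above all PU.1 with C/EBP, RUNX and AP-1 proteins. LPS and IFN-γ together open inflammatory enhancers while many sites of the resting cell lose accessibility. Some genes of a marrow culture, such as S100a8 and S100a9, which encode the calprotectin of neutrophils and monocytes, belong to precursors that disappear as macrophages mature.

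Sequences are shown here for 6 of the sites because they carry the best supported RNA changes or the highest counts. They were read from GRCm38 (mm10), 5′ to 3′, as 200 bases at the middle of a site or 200 bases before a gene start. Capitals mark matches on either strand to 6 motifs, of which PU.1 (GAGGAAGT), RUNX (TGTGGTT, which reads AACCACA on the other strand) and part of an interferon response element (GAAANNGAA, called IRF below) occurred.
S100a9 promoter, chr3:90695722-90695921, minus strand: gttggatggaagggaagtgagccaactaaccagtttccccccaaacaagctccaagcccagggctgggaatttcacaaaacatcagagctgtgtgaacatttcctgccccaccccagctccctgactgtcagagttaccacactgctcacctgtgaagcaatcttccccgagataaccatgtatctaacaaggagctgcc
S100a9 distal site, chr3:90691970-90692169, plus strand: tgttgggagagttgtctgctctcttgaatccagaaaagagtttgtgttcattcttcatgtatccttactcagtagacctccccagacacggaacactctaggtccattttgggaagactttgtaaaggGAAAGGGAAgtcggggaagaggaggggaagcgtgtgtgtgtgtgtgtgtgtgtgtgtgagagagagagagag
Ly6c2 promoter, chr15:75111971-75112170, minus strand: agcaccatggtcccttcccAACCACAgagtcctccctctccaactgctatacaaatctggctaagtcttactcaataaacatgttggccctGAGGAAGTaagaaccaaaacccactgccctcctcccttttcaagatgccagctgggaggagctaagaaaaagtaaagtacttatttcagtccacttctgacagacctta
Apoe promoter, chr7:19699189-19699388, minus strand: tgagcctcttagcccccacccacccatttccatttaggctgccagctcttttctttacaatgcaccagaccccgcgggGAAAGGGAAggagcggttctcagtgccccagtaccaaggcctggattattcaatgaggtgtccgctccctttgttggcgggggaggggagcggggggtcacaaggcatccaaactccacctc
Lyz2 distal site, chr10:117276602-117276801, plus strand: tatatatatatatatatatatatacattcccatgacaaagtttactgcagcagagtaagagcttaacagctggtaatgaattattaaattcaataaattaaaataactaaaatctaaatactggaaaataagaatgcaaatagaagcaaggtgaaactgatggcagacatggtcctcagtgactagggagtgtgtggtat
Cacng4 intron site, chr11:107785079-107785278, plus strand: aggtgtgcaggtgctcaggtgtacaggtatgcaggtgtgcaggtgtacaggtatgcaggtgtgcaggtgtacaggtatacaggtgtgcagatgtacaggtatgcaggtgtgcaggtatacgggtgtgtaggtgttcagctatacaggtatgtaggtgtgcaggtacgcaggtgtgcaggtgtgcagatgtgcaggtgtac

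The Cacng4 sequence is a tandem repeat of a short unit through the whole window, and the Lyz2 sequence opens with a run of alternating T and A. The Ly6c2 promoter held 1 PU.1 and 1 RUNX match. Of 21938 protein-coding starts 2.06% held the PU.1 letters in the same 200 bases, 3.45% the RUNX letters and 5.52% the IRF letters that stood in the Apoe promoter.

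The rule fixes that the 379 sites were low in M1 and in M1→M0, and their levels are given as a description. Their median CPM was 8.34, 8.19 and 8.15 in the 3 M0 libraries. It was 1.47, 2.15 and 1.16 in the M1 libraries and 2.68, 2.68 and 2.69 in the M1→M0 libraries. The M1→M0 libraries lay close together and above the M1 libraries in this median, and at the reopening sites the M1→M0 medians were 5.98 to 6.17. The median site had 0 h M0 at 3.88 times M1, with a range of 3.00 to 25.1, and at 2.58 times M1→M0, with a range of 2.01 to 15.4. M0 was at least 3 times M1→M0 at 116 sites and at least 4 times at 45. Counts behind these values are small, since the median site had 78, 41 and 60 reads in the M0 libraries and 5, 17 and 2 in the M1 libraries. Most were weak sites also in M0, since 253 had an M0 mean under 10 CPM and 33 reached 20 CPM.

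**Figure D1:**
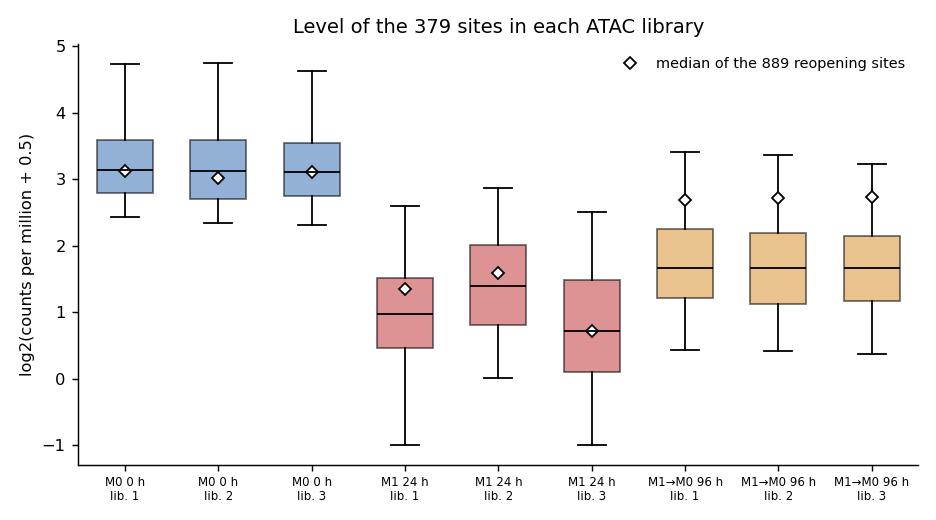
Level of the 379 sites in each of the 9 ATAC-seq libraries as log2(CPM + 0.5); boxes span the quartiles with the median as a line, whiskers the 5th to 95th percentiles, and open diamonds give the median of the 889 reopening sites. Medians of the 379 sites were 8.15 to 8.34 CPM in M0 and 2.68 to 2.69 CPM in M1→M0, where the diamonds stand higher.

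In 377 of the 379 sites every M0 library lay above all 6 other libraries, which held for 14.8% of all 48444 sites with an M0 mean of at least 5. By edgeR all 379 sites were lower in M1 than in M0 and all were lower in M1→M0 than in M0, where 14.3% and 8.53% of 133850 tested sites were called lower and 16.6% and 10.1% higher. These calls repeat the rule and show nothing further. Of the 889 reopening sites 341 (38.4%) were also called lower in M1→M0 than in M0, and 15 higher. Between M1→M0 and M1, which the rule also limits, 68 of the 379 sites were called higher (17.9%) and 1 lower, against 10.2% and 11.8% of all tested sites. Among reopening sites 774 of 889 were called higher. As a description, 192 of the 379 sites had M1→M0 at least 1.5 times M1, 62 at least 2 times, and 32 stood below M1. Reads per site in M1 were few, and the part of counting error in the spread of these ratios was not tested.

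**Figure D2:**
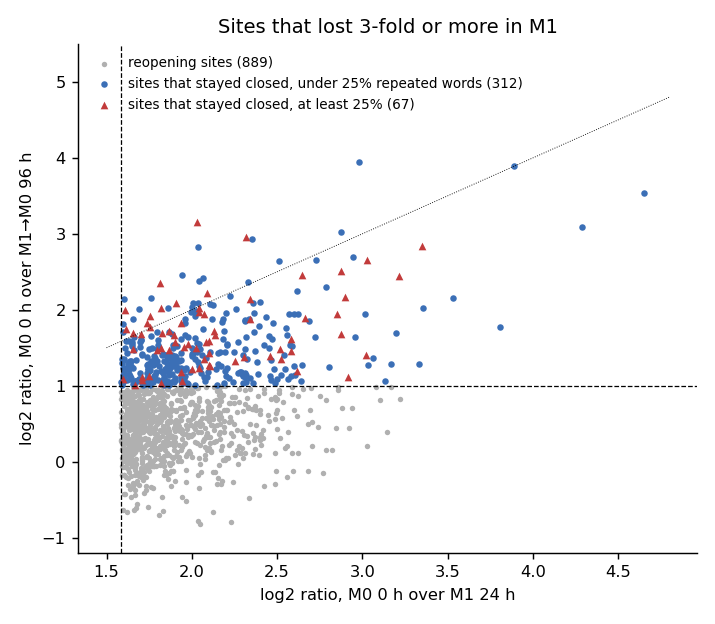
Each point is 1 of the 1268 sites that closed in M1; axes are the log2 ratios of M0 to M1 and of M0 to M1→M0, from mean CPM + 0.5. Dashed lines are the limits of the rule, the dotted line marks equal ratios, and triangles are the 67 sites with at least 25% repeated words; most of the 379 sites lie below the dotted line, with M1→M0 above M1.

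Sites just inside the 2-fold limit were 1 in an intron of Smarcd3, 18.1 kb from Chpf2, with means of 5.61 CPM in M0 and 2.54 CPM in M1→M0, 1 that lay 119 kb from Tomm20, with 25.9 and 12.6 CPM, and the promoter of Ffar4, with 5.58 and 2.51 CPM. Just outside it were a site 18.5 kb from Eapp with 19.6 and 9.57 CPM, 1 near Zfp993 with 5.25 and 2.39 CPM and 1 in Capn2 with 12.0 and 5.81 CPM. At the 3-fold limit on M1, Cnih3 (5.10 CPM in M0, 1.36 in M1), Ffar4 (1.52 in M1) and Muc20 (6.90 and 1.96) stood just inside, and Slc16a7 (11.9 and 3.63), Ppp2r3d (7.59 and 2.20) and Dock8 (10.7 and 3.23) just outside. The members nearest to a limit and the sites just beyond it thus had nearly the same ratios.

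By GENCODE annotation 154 of the 379 sites lay in introns, 141 between genes, 58 within 500 bp of a protein-coding start and 26 over exons. The promoter share was 15.3%, against 16.4% of reopening sites and 19.6% of the other sites open in M0. A start was within 50 kb of 270 sites. The sites were spread over 20 chromosomes, from 5 on X to 31 on chromosome 1, with 15 on chromosome 18 that are counted but not named. Another member lay within 10 kb of 21 sites.

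Repeated sequence, which the rule did not use, was more frequent at these sites, given as a description. At least 25% of the 32-base words in a site occurred more than 1 time in the assembly at 67 of 379 sites (17.7%), at 47 of 886 reopening sites (5.30%) and at 106 of 2356 of the other sites, of which 1 in 20 was examined (4.50%). Of the 25 members with the highest M0 mean 14 passed that limit. Reads from such places can come from several copies, so their counts are uncertain as to place. Copies absent from the assembly are not seen by this measure. Without those 67 sites the other 312 had median levels of 7.77 CPM in M0, 1.51 in M1 and 2.63 in M1→M0, against 8.0, 1.61 and 2.71 over all 379. The rule bounds these levels and most of the sites are the same, so their likeness shows nothing further. The 67 sites themselves had medians of 10.0, 2.18 and 3.20 CPM. Their median ratio of M0 to M1→M0 was 3.07, against 2.50 at the other 312. The part of repeated sequence in the choice of these sites was not tested.

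The highest of all members, chr17:39843044-39848787, had 478, 763 and 583 CPM in M0, 177, 216 and 195 CPM in M1 and 227, 213 and 290 CPM in M1→M0. All M0 libraries stood above the others, and M1 and M1→M0 overlapped. Part of it lies in AY036118, a noncoding gene, and the place is known to hold a copy of the ribosomal RNA repeat, whose other copies are mostly missing from the assembly. Next came a site of 2761 bp that lies 5.62 kb from the start of Lyz2, the gene of the macrophage lysozyme. It had 130, 186 and 157 CPM in M0, 28.5, 30.4 and 20.2 CPM in M1 and 53.0, 51.6 and 44.2 CPM in M1→M0. The 3 conditions did not overlap, and M1→M0 lay between the other two. An intron site of Cacng4, a subunit of neuronal calcium channels, had 54.6, 43.6 and 50.2 CPM in M0 against 4.12, 5.30 and 5.20 in M1 and 8.42, 9.86 and 7.76 in M1→M0, and 35.2% of its words were repeated.

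A group of 6 members lay over genes of small nuclear RNAs (snRNAs), the RNA parts of the spliceosome, among 51 sites with an M0 mean of at least 5 that did. Of these 4 form a cluster on chromosome 12 near Eapp, where Gm22634, Gm25679, Gm26444 and Gm22317 are found. The Gm22634 site had 27.8, 29.4 and 29.7 CPM in M0, 4.12, 6.06 and 0.578 CPM in M1 and 9.76, 6.34 and 5.38 CPM in M1→M0, so that M0 stood apart and the other conditions overlapped. Means at the 4 sites were 23.7 to 29.0 CPM in M0, 3.54 to 4.98 in M1 and 7.16 to 10.6 in M1→M0. The 164 bases of these 4 genes and of Gm22068 on chromosome 11, which is also a member, were identical to Rnu1a1, a gene of the U1 snRNA that recognises the start of introns. The site at Rnu1a1 itself had means of 34.0 CPM in M0, 18.9 in M1 and 19.2 in M1→M0. It met neither the limit for M1 nor that for M1→M0. The 100 bases before the start tell the copies apart only in part and are shown for that reason, with capitals where a copy differs from Gm22634.
Gm22634, chr12:54710208-54710307, plus strand: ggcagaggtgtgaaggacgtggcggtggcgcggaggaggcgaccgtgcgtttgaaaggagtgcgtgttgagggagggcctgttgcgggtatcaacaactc
Gm25679, chr12:54719327-54719426, minus strand: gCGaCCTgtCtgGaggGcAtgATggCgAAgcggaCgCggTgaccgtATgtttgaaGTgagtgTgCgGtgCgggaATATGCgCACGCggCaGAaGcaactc
Gm22068, chr11:87426616-87426715, plus strand: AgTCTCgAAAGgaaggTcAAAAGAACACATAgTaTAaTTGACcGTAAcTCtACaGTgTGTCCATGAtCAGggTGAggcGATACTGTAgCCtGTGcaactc
Gm22317 has the first of these sequences and Gm26444 the second, with 0 differences each, while Gm22634 and Gm25679 differ at 40 of 100 bases and Gm22634 and Gm22068 at 70. Reads within the genes cannot be placed among the copies. A further copy in the same cluster, at 18.5 kb from Eapp, was the site named above just outside the 2-fold limit.

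Motifs were searched on both strands in the middle 200 bases of each site. Among the 321 members that were not promoters 5.61% held AP-1 (TGANTCA), as did 4.59% of 741 reopening sites, against 15.3% of 37862 other sites open in M0. The AP-1 share was lower than in those other sites in each of 5 classes of GC content, of which the nearest values were 4.17% of 72 members and 5.0% of other sites where GC was at least 60%. PU.1 (GAGGAAGT) was found in 4.98% of members, 10.4% of reopening sites and 8.08% of the others, RUNX (TGTGGTT) in 9.97%, 8.10% and 7.38%, and C/EBP (TTGCNNAA) in 9.97%, 9.99% and 11.7%. The IRF letters were in 6.85% of the 321 members. MEF2 (CTATTTNTA) was in none of the 321 members and in 1.35% of reopening sites. Median GC was 53.0% at members, 51.0% at reopening sites and 48.5% at the others. In promoters, 0 of 58 members held the ETS core (CCGGAAG), which 9.59% of all 11414 promoter sites held, and 5 of 58 (8.62%) held PU.1, against 2.24%. A match says only that the letters are present.

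Sites near neutrophil and precursor genes were among the lowest after M1. The S100a9 promoter had 6.41, 8.19 and 8.01 CPM in M0, 0, 0.126 and 0 CPM in M1 and 0.122, 0 and 0 CPM in M1→M0. A site 3.65 kb from that start had 14.1, 20.4 and 16.2 CPM in M0, 0, 0 and 0.578 in M1 and 1.10, 0 and 1.90 in M1→M0. A further member near S100a9 lay at 8.82 kb, 1 lay 3.00 kb from S100a8, 1 lay 5.44 kb from Cebpe, a factor of granulocyte maturation, and 1 lay 3.59 kb from Ngp, a granule protein gene. The S100a8 site had 6.20, 10.4 and 8.83 CPM in M0 and 0.244, 0 and 0 in M1→M0, and the Ngp site 8.34, 15 and 14.4 against 0.732, 0.141 and 2.22. M0 lay apart from M1→M0 at each of these 4 sites, and no M1→M0 library there exceeded 2.22 CPM. Of 36 sites open in M0 within 50 kb of the 18 genes on the neutrophil and precursor list 6 were members (16.7%), and of 23 near 8 stem and progenitor genes 4 were, at Flt3, Erg, Cd34 and Myb (17.4%). For the 80 open sites near core macrophage genes the count was 1, at Lyz2, for 146 near macrophage transcription factors 1, at Runx1, for 45 near interferon-stimulated genes 0 and for 55 near inflammatory cytokines 0. It was 1 of 17 sites near dendritic cell markers (5.88%) and 1 of 40 near IL-4 response genes (2.5%), both at Cd209a, a C-type lectin. It was 2 of 52 near LXR and lipid genes (3.85%), at Apoe and Srebf1, and 1 of 69 near chemokine receptor and adhesion genes (1.45%), at Cxcr4. It was 0 for 12 sites near B cell, 27 near osteoclast, 6 near fibroblast, 3 near megakaryocyte and 13 near T and NK cell markers. The count was also 0 for 5 near erythroid and 2 near mast cell and basophil markers. For 62 near scavenger and phagocytic receptors and 48 near cell cycle genes it was 0 too. Members were 0.782% of all sites with an M0 mean of at least 5.

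**Figure D3:**
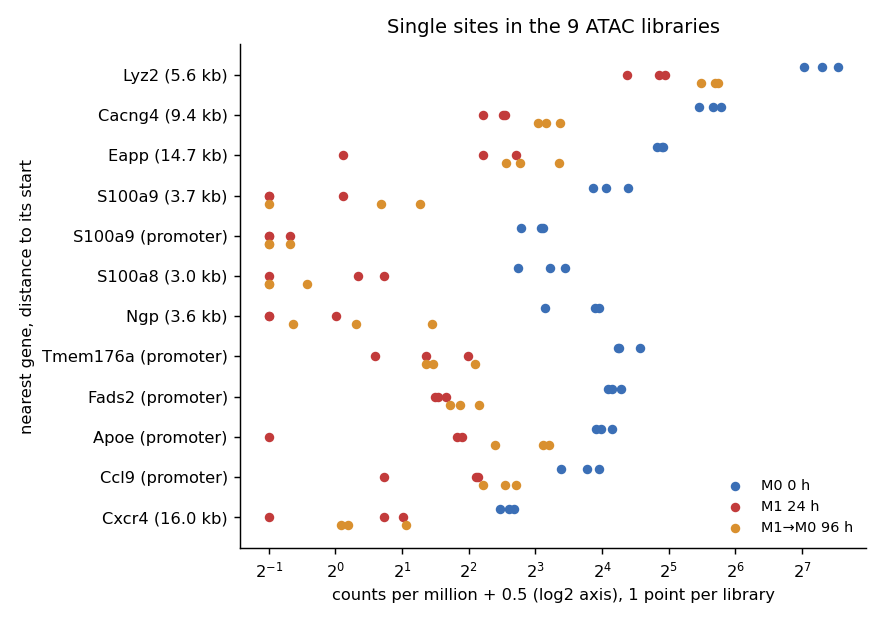
CPM + 0.5 on a log2 axis at 12 single members in each ATAC-seq library, with the nearest gene and the distance to its start. All M0 points lie right of the M1 and M1→M0 points at each site; at the S100a9 promoter M0 was 6.41 to 8.19 CPM and the other libraries 0 to 0.126 CPM.

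Promoter members with the highest M0 level were those of Syde2, Prickle1, Lbp, Tmem176a, Dclk2, Prune2, Fads2 and Trim9. The Tmem176a site also covers the start of Tmem176b, a partner gene for a membrane protein of immature dendritic cells and macrophages, and had 23.3, 18.6 and 18.5 CPM in M0, 2.06, 1.01 and 3.47 in M1 and 3.78, 2.25 and 2.06 in M1→M0. A second member stood 10.4 kb away with means of 6.43, 1.09 and 1.16 CPM. The promoter of Fads2, a desaturase of polyunsaturated fatty acids, had 17.2, 19.0 and 16.6 CPM in M0, 2.65, 2.40 and 2.31 in M1 and 2.81, 3.94 and 3.17 in M1→M0. The promoter of Apoe, the lipid carrier apolipoprotein E, had 15.3, 17.2 and 14.5 CPM in M0, 3.24, 3.03 and 0 in M1 and 8.18, 8.73 and 4.75 in M1→M0, so it had come part of the way back. M0 was apart at all 3, while M1 and M1→M0 overlapped at Tmem176a only. A site 16.0 kb from Cxcr4, the receptor for the marrow chemokine CXCL12, had 5.88, 5.60 and 5.02 CPM in M0 and 1.59, 0.563 and 0.633 in M1→M0, and 1 in an intron of Runx1, a factor of blood development, had 6.09, 4.00 and 5.02 against 0.976, 0.986 and 0.317.

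Whether genes near these sites also stayed low was tested in the RNA-seq libraries, which the rule did not use. Each site was linked to its nearest protein-coding start within 50 kb, which gave 256 genes, of which 91 were among the 8307 genes of the RNA data, a table the authors limited to genes that reached 10 FPKM in a library. Differences are on the log2(FPKM + 1) scale, tested with limma over all 8307 genes at an adjusted p of 0.05. In 24 h M1 against 0 h M0, 43 of the 91 genes were lower and 20 higher (47.3% and 22.0%), where 25.2% of all genes were lower and 35.9% higher. In 96 h M1→M0 against 0 h M0, 23 were lower and 8 higher (25.3% and 8.79%), against 8.39% and 14.0% of all genes. Unstimulated culture alone, 96 h M0 against 0 h M0, gave 15 lower and 3 higher (16.5% and 3.30%), against 6.9% and 6.75%. When 96 h M1→M0 was set against 96 h M0, which matches the time in culture, 16 were lower and 9 higher (17.6% and 9.89%), against 7.19% and 10.7%. The first 3 comparisons share the 0 h M0 libraries. The 15 lower calls of 96 h M0 were 9 without 0 h M0 replicate 1 and 7 without replicate 3.

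Median differences over the 91 genes were -0.36, -0.16, -0.05 and -0.06 in the 4 comparisons, against 0.10, 0.05, 0.01 and 0.05 over all genes. For the 148 genes linked to reopening sites the counts of lower genes were 71, 26, 8 and 26, which is 48%, 17.6%, 5.41% and 17.6%. The 10 genes with a member within 500 bp of their start were Apoe, Ccl9, Clstn1, Gpx3, Ly6c2, Mgll, Pdlim1, S100a9, Shisa2 and Tmem176a. Of these 9 were lower in M1, 8 in M1→M0 against 0 h M0, 3 in 96 h M0 and 5 in M1→M0 against 96 h M0, with 1 higher call, Mgll in 96 h M0, which is lost without 0 h M0 replicate 1 (limma adjusted p = 0.0581). The lower call of Pdlim1 in 96 h M0 is lost when only the 2 groups are fitted and without 0 h M0 replicate 3 or 96 h M0 replicate 1 or 2, with adjusted p of 0.0906 to 0.262. Their median differences were -1.65, -1.69, -0.24 and -1.41. For the 10 genes with a reopening site at their start the medians were -1.79, -0.35, 0.18 and -0.28. Of these 10 genes 8, 3, 1 and 4 were lower in the 4 comparisons, and 4 were higher in 96 h M0. Lower calls over all 8307 genes were 25.2%, 8.39%, 6.9% and 7.19%. No test of the members as a list was made.

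**Figure D4:**
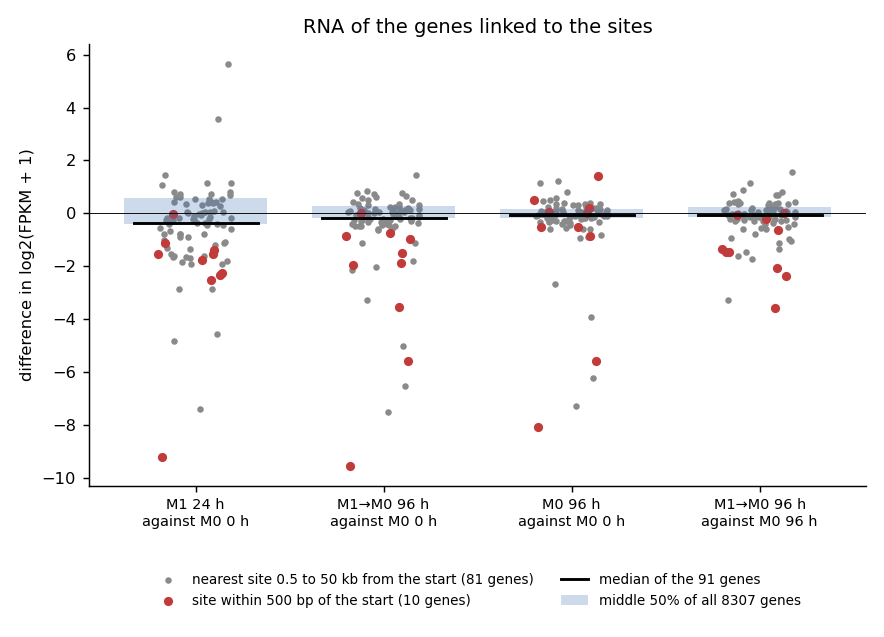
Difference in log2(FPKM + 1) of the 91 linked genes in the 4 RNA comparisons, 1 point per gene, with the 10 genes that have a member at their start in red, the median of the 91 genes as a line and the middle 50% of all 8307 genes shaded. Median differences of the 10 genes were -1.65, -1.69, -0.24 and -1.41 from left to right.

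One group of linked genes was low after M1 and also in M0 cells of the same age. S100a9 RNA was 323, 1088 and 1145 FPKM in the 0 h M0 libraries and 0.177 to 0.390 FPKM in M1. It was listed at 0 in the 3 M1→M0 libraries and 0.596 to 3.77 in the 4 libraries of 96 h M0. The 0 h M0 level was higher than in M1→M0 (limma adjusted p = 5.2e-12) and in 96 h M0, which differed from it by -8.07 ± 1.01 (SE; adjusted p = 5.7e-10), while M1→M0 against 96 h M0 gave an adjusted p of 0.36. That last comparison depended on the fit, with a limma adjusted p of 0.0361 when only these 2 groups were fitted and 0.0123 on the log2(FPKM + 0.1) scale, M1→M0 being the lower. S100a8 was 324, 1089 and 755 FPKM at 0 h, 4.14 to 11.7 in M1→M0 and 5.79 to 10.4 in 96 h M0. Ngp was 87.6 to 261 FPKM at 0 h, listed at 0 in M1→M0 and 0.112 to 0.214 in 96 h M0. Plac8 was 31.8 to 38.7 FPKM at 0 h, 0 to 0.122 in M1→M0 and 0.359 to 4.14 in 96 h M0 (limma adjusted p = 0.064 between the last 2), and it was called lower in M1→M0 than in 96 h M0 on the log2(FPKM + 0.1) scale (0.00721) and without 96 h M0 replicate 1 or 2 (0.0319 and 0.0418). Ly6c2, a marker of inflammatory monocytes, was 84.9, 36.8 and 47.1 FPKM at 0 h, 0.0515 to 0.206 in M1→M0 and 0 to 0.384 in 96 h M0, and 66.5% of the words of its promoter site were repeated, so its reads may be shared with a related Ly6 gene. Nfe2, an erythroid and megakaryocyte factor with a member in its intron, fell by 3.27 ± 0.27 in M1→M0 (limma adjusted p = 1.3e-18) and by 2.67 ± 0.25 in 96 h M0 (adjusted p = 4.7e-15). In all of these the 0 h M0 libraries stood above every library of the 2 later groups, which overlapped in S100a8, Ly6c2 and Nfe2.

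Most markers of neutrophils and their precursors moved with this group. Of 18 listed genes 14 were in the RNA data, and 12 were lower in M1, 14 in M1→M0 and 12 in 96 h M0, all against 0 h M0. The lower shares over all genes were 25.2%, 8.39% and 6.9%. The summed level of the 14 genes was 1202 to 3042 FPKM in the 0 h M0 libraries, 128 to 140 in M1, 38.5 to 56.9 in M1→M0 and 113 to 161 in 96 h M0. S100a9, Ngp and Retnlg were listed at 0 in M1→M0, while Mmp9, Csf3r and Mmp8 kept means of 22.3, 12.9 and 4.48 FPKM there. Against M0 cells of the same age, 3 of the 14 genes were lower in M1→M0, which were Mmp9, Mpo and Prtn3. Mmp9 did not fall in unstimulated culture, with means of 98.5 FPKM at 0 h and 102 FPKM at 96 h (limma adjusted p = 0.96). It made up most of the 96 h M0 sum, and M1→M0 was lower (limma adjusted p = 0.00034). The 3 list genes among the 91 were S100a8, S100a9 and Ngp, and without them 40, 20, 12 and 16 genes remained lower in the 4 comparisons. In bulk samples fewer cells of a type and less RNA per cell cannot be told apart, and the part of these cells in the ATAC-seq values was not tested. By 24 h the mean of S100a9 in unstimulated M0 was 102 FPKM, with a lowest library of 6.56, and by 48 h it was 8.77 FPKM.

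A second group was low in M1→M0 but not in 96 h M0. By their summed levels some marker lists of other cells moved with it and some did not. Summed levels were 9.67 to 16.9 FPKM in M1→M0 and 41.9 to 78.2 in 96 h M0 for the dendritic cell markers in the data (Itgax and Batf3, 2 of 7), and 39.5 to 63.2 against 139 to 155 for the B cell markers (Ighm and Blnk, 2 of 9). They were 23.2 to 47.2 against 75.1 to 105 for osteoclast markers (5 of 6) and 0.397 to 1.65 against 22.4 to 155 for fibroblast markers (Col1a1, Col1a2 and Postn, 3 of 6). The sums did not overlap in any of these lists, and 1, 2, 3 and 3 of their genes were lower in M1→M0. In 0 h M0 the sums were 37.8 to 46.0, 142 to 149, 62.2 to 110 and 2.97 to 19.7 FPKM. For megakaryocyte markers (Pf4, Itga2b and Ppbp, 3 of 6) the sums overlapped, with 367 to 430 FPKM in M1→M0 and 371 to 435 in 96 h M0. They also overlapped for T and NK cell markers (Il7r, 1 of 8), with 54.2 to 77.0 and 66.2 to 104 FPKM. Of the genes of these 2 lists 2 and 0 were lower in M1→M0. The part of all these cell types in the result was not tested. Differences below are M1→M0 minus the group named. Tmem176a was 61.9, 39.1 and 49.6 FPKM in 0 h M0, 4.62, 13.2 and 7.65 in M1, 3.27, 3.13 and 3.55 in M1→M0 and 74.0, 72.5, 35.3 and 33.9 in 96 h M0. Both M1-treated groups lay below both M0 groups with no overlap. M1→M0 was lower than 0 h M0 by -3.55 ± 0.47 (SE; limma adjusted p = 1.8e-09) and lower than 96 h M0 by -3.58 ± 0.44 (adjusted p = 1.3e-10), while 96 h M0 and 0 h M0 differed by 0.03 ± 0.44 (adjusted p = 0.98). Its mean after washing went from 7.38 FPKM at 25 h to 1.00 at 48 h before it was 3.32 at 96 h.

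Apoe was 11891, 9587 and 13647 FPKM in 0 h M0, 2707, 4904 and 4783 in M1, 2517, 3784 and 3279 in M1→M0 and 12062 to 14303 in 96 h M0. M1→M0 lay below every M0 library, by -1.88 ± 0.39 against 0 h M0 (limma adjusted p = 0.00011) and by -2.06 ± 0.36 against 96 h M0 (adjusted p = 5.2e-06). Lyz2 was 7897, 7322 and 8240 FPKM in 0 h M0, 4149, 2149 and 2255 in M1→M0 and 5990 to 8193 in 96 h M0, a difference of -1.33 ± 0.14 between the 2 groups at 96 h (adjusted p = 8.4e-13). M1→M0 libraries lay below all M0 libraries here too. Macrophages washed after IL-4 (M2→M0) had means of 10878 FPKM of Apoe, 6981 of Lyz2 and 31.5 of Tmem176a at 96 h, nearer to M0. The 2 libraries of 48 h M0 were also low, with means of 3993, 4537 and 9.95 FPKM, so these genes varied in unstimulated culture as well.

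Further genes of this kind had smaller or less stable differences. Gpx3, a secreted glutathione peroxidase with a member at its start, was 1.11 to 6.23 FPKM in M1→M0 and 7.08 to 12.2 in 96 h M0, a difference of -1.46 ± 0.20 (limma adjusted p = 7.4e-09). Mgll, the lipase that breaks down monoacylglycerols, was 2.77 to 6.64 FPKM in M1→M0 against 21.5 to 33.1 in 96 h M0 (-2.38 ± 0.33, limma adjusted p = 8.9e-09). Against 0 h M0 it fell by 0.97 ± 0.35 (adjusted p = 0.035), a call that is lost when only these 2 groups are fitted (adjusted p = 0.117) and without 0 h M0 replicate 2 or 3 or M1→M0 replicate 1 or 3, with adjusted p of 0.0803 to 0.21. Clstn1, a calsyntenin, differed from 96 h M0 by -1.36 ± 0.23 (adjusted p = 1.2e-06), and Plxnd1, a semaphorin receptor with a member in its intron, by -1.05 ± 0.25 (adjusted p = 0.001). Serpinf1, a secreted inhibitor of blood vessel growth, was 0.238 to 0.941 FPKM in M1→M0 and 5.36 to 43.7 in 96 h M0 (-3.27 ± 0.58, adjusted p = 7.1e-06), beside the fibroblast sums of 0.397 to 1.65 and 22.4 to 155 FPKM given above.

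Slco2b1 and Cxcr4 differed from these, since their RNA rose again after the wash. Slco2b1, a transporter of organic anions, was 29.6 to 37.8 FPKM in 0 h M0, 0.0584 to 0.363 in M1, and 7.10, 20.6 and 24.5 in M1→M0 at 96 h, below the 39.4 to 63.5 of 96 h M0 (-1.60 ± 0.44, limma adjusted p = 0.0044; adjusted p = 0.125 without M1→M0 replicate 1 and 0.0611 on the log2(FPKM + 0.1) scale). The member in its intron had 14.5, 11.6 and 8.96 CPM in M0, 0.883, 3.28 and 1.16 in M1 and 4.27, 4.37 and 2.53 in M1→M0. Cxcr4 went from a mean of 9.48 FPKM in M1 to 40.7 at 28 h, 4 h after the wash, and to 31.3 at 96 h, when its member site was still at 0.563 to 1.59 CPM. It differed from 0 h M0 by -0.22 ± 0.41 at that time (limma adjusted p = 0.76) and from 96 h M0, where it was 71.8 to 102 FPKM, by -1.44 ± 0.38 (adjusted p = 0.0034). The rise of Cxcr4 between 0 h and 96 h M0, by 1.22 ± 0.38 (adjusted p = 0.022), is lost without 0 h M0 replicate 1 or 3 or 96 h M0 replicate 1 or 2, with adjusted p of 0.0557 to 0.0787.

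**Figure D5:**
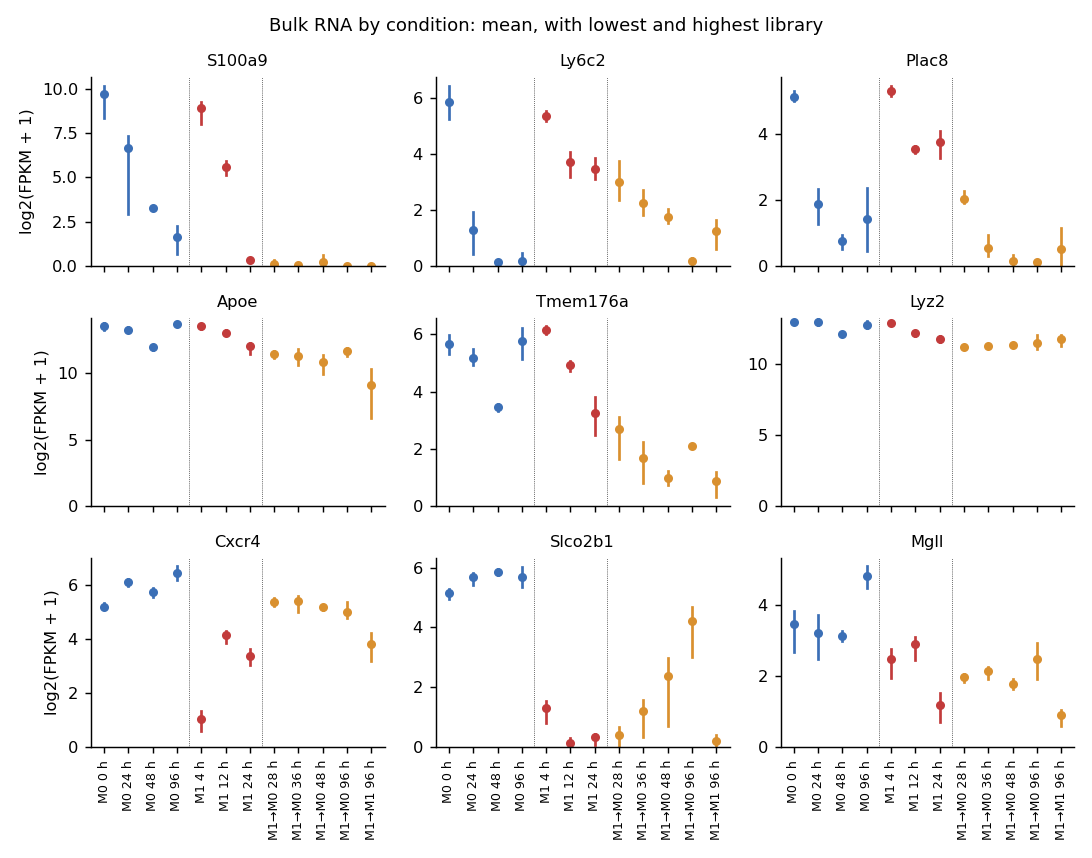
RNA of 9 linked genes as log2(FPKM + 1) by condition, with the mean as a point and a line from the lowest to the highest library; M0 in blue, M1 in red, cells moved from M1 medium in orange. S100a9, Ly6c2 and Plac8 fall in M0 culture as well as in M1, while Apoe, Tmem176a and Lyz2 are high in 96 h M0 and low in 96 h M1→M0.

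Some linked genes went the other way in M1. H2-Q6, a class Ib histocompatibility gene, rose by 5.64 ± 0.25 (SE; limma adjusted p = 1.8e-39), and Acsl1, which activates fatty acids, from 11.7 to 14.5 FPKM in 0 h M0 to 131 to 207 FPKM in M1 (3.58 ± 0.28, adjusted p = 5.5e-21). All words of the H2-Q6 site were repeated. Coro2a, Uvrag and Ier5 rose by 0.82 to 1.16, with M1 libraries above every 0 h M0 library. In M1→M0 against 96 h M0, H2-Q6 was higher by 1.57 and Acsl1, Ccnd3, Coro2a, Apbb1ip and Rnf220 by 0.38 to 0.79. Of these the Acsl1 call is lost without 96 h M0 replicate 3 or M1→M0 replicate 1 (limma adjusted p = 0.0547 and 0.147) and the Coro2a call without M1→M0 replicate 2 (0.0923). Leaving out 96 h M0 replicate 1 or 2 or M1→M0 replicate 1 or 2 ends the calls of Apbb1ip (0.0594 to 0.104) and Rnf220 (0.0541 to 0.173), and without M1→M0 replicate 3 that of Apbb1ip is also lost (0.0525). Fkbp5, a glucocorticoid-induced chaperone with 2 members near its start, was 1.12 to 1.85 FPKM in M1, 8.63 to 13.5 in M1→M0 and 3.25 to 6.54 in 96 h M0, so that its RNA was above M0 while the sites were at 0.732 to 0.845 and 1.13 to 2.06 CPM. A low site was therefore not always beside a low gene.

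Cells kept in M1 cytokines to 96 h had a median difference from 0 h M0 of -2.89 over the 10 promoter-linked genes. It was -2.20 in M1→M0 at 48 h, -1.69 at 96 h and -0.48 in 96 h M2→M0. In unstimulated M0 it was -0.39 at 24 h, -1.24 at 48 h, with 2 libraries, and -0.24 at 96 h. These medians share the 0 h M0 libraries. They were near 0 at 1 and 2 h of M1, with 0.08 each, and -0.58 at 12 h.

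Single-cell libraries were 1 per condition and so without a test. In them the same macrophage genes were lower in 24 h M1 than in 0 h and 24 h M0. Levels are CPM of the UMIs of a library, summed over all deposited barcodes with no doublet caller run. In the order of 0 h M0, 24 h M0 and 24 h M1, Apoe was 8762, 11284 and 3111 CPM and Lyz2 was 17513, 17056 and 4586 CPM. Tmem176a was 60.5, 133 and 14.2 CPM, with 95% Poisson intervals of 55.1 to 66.3, 124 to 143 and 11.6 to 17.2 that cover counting error only. Cxcr4 was 77.5, 95.9 and 2.81. Slco2b1 had 224, 252 and 0 UMIs, the last of which allows up to 0.518 CPM. Levels also varied without M1 cytokines. At 6 h M0, Apoe was 5257, Lyz2 11810, Tmem176a 36.9 and Cxcr4 27.7 CPM, each below its 0 h level. With IL-4 for 24 h, Apoe was 3926 and Lyz2 4857 CPM, near the 24 h M1 values. Tmem176a was 57.7 CPM there, near 0 h M0, and Cxcr4 lay between 24 h M1 and 0 h M0. All these values were above those of 24 h M1. S100a9 had 15 UMIs in 5985 barcodes of 0 h M0, of which 1 barcode held at least 50%, and 0 in 24 h M0. Of these 5985 barcodes 3 held 10 or more UMIs of the neutrophil and precursor list. Between 8 and 25 barcodes were shared by each pair of the libraries used.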

How the data were processed

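The authors aligned reads to mm10 with TopHat2 (2.0.14), removed duplicate ATAC-seq reads with SAMtools (1.9), called peaks on all libraries merged with MACS2 (2.1.0) and deposited raw read counts per peak and library from bedtools (2.28.0). For RNA-seq the authors deposited log10 values from Cuffnorm (2.2.2), read here as log10(FPKM + 1) because none lies below 0, and computed back to FPKM. Single-cell UMI counts were deposited as Cell Ranger gave them. No column of the tables was without a sample (0 unmapped). The members and the gene lists were chosen with earlier results of these data known.

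Site counts were divided by the library total for CPM. Sites with normalized counts above 10 in 1 library were tested with edgeR (4.0.16) quasi-likelihood, and RNA with limma (3.58.1) on log2(FPKM + 1) over all conditions, both adjusted by Benjamini-Hochberg with a threshold of 0.05, in R (4.3.3). Depth of the RNA libraries is unknown, since FPKM keep no counts. The tests were tried on simulated data. Sites on the assembled chromosomes were annotated with GENCODE starts, and sequences are from RefSeq GRCm38. Deviations of the RNA libraries from their group means correlated by 0.134 to 0.493 for replicates of the same number between 24 h M1 and 0 h M0 and by -0.494 to 0.489 for other pairs. In the other comparisons at least 1 pair of the same number lay below 0.

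Named sites were the 6 with the highest M0 mean, the 6 with the largest M0 to M1→M0 ratio at an M0 mean of at least 10 CPM, the 8 highest promoters, up to 4 per gene list, and 3 on each side of each limit. Named genes were the 6 with most sites, the 6 largest falls and rises per RNA comparison at 20 FPKM or more with no overlap, and genes of named sites; from these the text gives a selection. Clstn1, Gpx3, Serpinf1, Plxnd1, Nfe2, Fkbp5, Cebpe and the sites over snRNA genes were chosen after their values were seen. Sites on chromosome 18 are not named.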

Additional observations from a re-analysis of the deposited data

Results flagged for a closer look

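In 3 of 32 linked genes 1 of the 4 libraries of 96 h M0 stood apart from the other three by Dixon's test, which chance gives in about 1 of 20 groups. The highest library was 17.1 FPKM for Chpf2 and 4.96 FPKM for Pdlim1, and the lowest was 7.08 FPKM for Gpx3.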

How the results depend on the processing

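Read counts per site and 3 libraries per condition limit the single values. The rule took 333 to 470 sites when 1 library was left out, and 126 with an M0 minimum of 10 CPM. DESeq2 called 12747 sites between M1→M0 and M0 where edgeR called 24881, and 19283 between M1→M0 and M1 where edgeR called 29381; of the members it called 43 higher in the latter. With 1 library left out, sites called were 32491 to 40704 for M1 against M0, 16203 to 29414 for M1→M0 against M0 (7073 to 14176 lower, 9130 to 15238 higher) and 22017 to 29632 for M1→M0 against M1, with 45 to 73 members higher and 1 to 2 lower in the last. The count for M1→M0 against M0 was 16203 without M0 replicate 1 and 16448 without M1→M0 replicate 1. The causes were not tested.

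Linked genes were fewer where fewer sites could be linked. With starts within 10 kb, 23 were lower and 2 higher in M1, 3 higher in M1→M0 against 0 h M0, 7 lower and 1 higher in 96 h M0, and 2 higher in M1→M0 against 96 h M0. Within 500 bp the counts were 9 and 0, 8 and 0, 3 and 1, and 5 and 0. Within 100 kb 6 were higher in 96 h M0. Fitting only the groups compared gave 5 higher in M1→M0 against 0 h M0, and linking from sites under 25% repeated words gave 13 higher in M1. Leaving out 1 library gave 37 to 43 lower and 18 to 19 higher in M1, 19 to 26 and 3 to 8 in M1→M0 against 0 h M0, 7 to 15 and 0 to 3 in 96 h M0, and 13 to 19 and 4 to 9 in M1→M0 against 96 h M0. With the replicate block, higher genes were 23 in M1, 14 in M1→M0 against 0 h M0, 7 in 96 h M0 and 14 in M1→M0 against 96 h M0, and lower genes 46, 31, 16 and 20; with the block in ATAC-seq 36574, 21590 and 25369 sites were called.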

Other observations

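Ly6c2 and Plac8, which fell in M1 in the bulk RNA, did not fall between 0 h M0 and 24 h M1 in the single-cell libraries. The bulk fall of Plac8 is lost on the log2(FPKM + 0.1) scale (limma adjusted p = 0.144) and without M1 replicate 1 (0.0507). Ly6c2 was 2.11 CPM of UMIs in 0 h M0 and 34.0 in 24 h M1 (95% Poisson interval 29.9 to 38.6, counting error only), and Plac8 was 11.0 and 16.0 CPM. The Plac8 intervals, 8.73 to 13.6 and 13.2 to 19.2, overlapped. At least 50% of the M1 UMIs of Ly6c2 were in 8 barcodes and of Plac8 in 5. In 0 h M0 at least 50% were in 3 and 4 barcodes. Barcodes with 10 or more UMIs of the neutrophil and precursor list numbered 3 of 5985 in 0 h M0 and 13 of 2842 in 24 h M1. This limit is not scaled for depth, and the median barcode held 1025 UMIs in 0 h M0 and 2056 in 24 h M1. The barcodes that passed had medians of 1239 and 5793 UMIs. The part of these barcodes in the difference was not tested.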
